A study of Homo sapiens with 6 samples.

Results

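The genes described here were TXNIP and the genes around it in the cell's glucose and redox sensing: the alpha-arrestins TXNIP, ARRDC4 and ARRDC3, the transcription factors MLX and MLXIP, and the thioredoxins TXN and TXN2. Their 7 genes were found on the array by the RefSeq accession given for each probe, which matched 8 of 34127 probes (MLXIP had 2). All 8 probes lay well above background on all 6 arrays and were among the 23872 probes tested. The set was chosen by the log2 signal of TXNIP, which was known to be higher on the IL-17A arrays than on the controls, so its difference is described here without a test, while the other 6 genes were tested.

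TXNIP binds reduced thioredoxin, and as an alpha-arrestin it also sits at the plasma membrane, where it brings glucose transporters into endocytosis. Its transcription rises when glucose-6-phosphate accumulates, because MLXIP (MondoA) then enters the nucleus with its partner MLX and binds a pair of E boxes, the carbohydrate response element, in the TXNIP promoter. ARRDC4, the closest relative of TXNIP, is known to be controlled in the same way and also lowers glucose uptake, so that the pathway forms a feedback loop.

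The cells were SU-DHL-2, an established line of diffuse large B cell lymphoma, and the comparison asked which transcripts differ after exposure to the cytokine IL-17A. In 3 samples the cells were kept with IL-17A at 200 pg/ml for 72 h, and 3 control samples were kept for 72 h without it. All 6 were 1 line in the same serum-containing medium, and glucose was no variable of the design. The labels do not say whether the samples came from separate cultures, so the p-values below measure the spread between these samples, which may be technical, and 3 arrays a group limit their precision. Each sample's Cy3-labelled RNA was read on 1 single-colour array, and values are log2 signal after quantile normalization, a scale on which a difference of 1 is a doubling.

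Of the 6 arrays, between 23542 and 24044 probes a sample were detected, and correlations between arrays ran from 0.993 to 0.997. The 3 controls and IL-17A replicate 1 came from 1 scan, while the remaining treated arrays, replicates 2 and 3, came from a second, so part of the comparison also runs between scans. The value with the scan as a block is given for each of the 7 genes. It equals the difference between IL-17A replicate 1, a single treated array, and the 3 controls of its scan, with an error that also draws on the spread of replicates 2 and 3. All 9 B cell markers were above background and 0 of 9 passed limma's test (3 at an unadjusted p under 0.05). Of all genes 7.95% passed limma's test and 31.8% did so unadjusted. By the methods' t-test 1 B cell marker passed after adjustment. Of the markers of other cells, 6 of 6 T and NK cell, 1 of 4 monocyte, 3 of 4 endothelial and 2 of 5 mesenchymal genes on the array were tested, and CSF1R, FCGR3A, KDR, COL1A2, COL3A1 and THY1 were at background on every array. The summed signal of each list's genes on the array overlapped between the groups for T and NK cell (197 to 221 with IL-17A, 208 to 218 without), monocyte (39.9 to 42.7 and 40.3 to 46.7) and mesenchymal genes (20.5 to 25.6 and 18.8 to 28.5). For the endothelial genes it was lower with IL-17A, at 254 to 259 against 278 to 321. Among those markers only CD3E passed the test (log2 difference -0.46, adjusted p = 0.0400). The part of these transcripts in the results below was not tested. The samples were 1 cell line. In bulk RNA the number of its cells giving such a transcript and the amount per cell cannot be told apart.

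The promoters of the members were read from RefSeq (assembly GRCh38.p14) as windows from 250 bases before to 50 bases after each start site, which 6 of the 7 genes have. The stretches below are shown because they hold the E boxes by which MLX and its partners are known to act, printed 5′ to 3′ on the gene's own strand with the match in capitals. Searched on both strands were the E box CACGTG and a paired form, CACGNG followed after 5 further bases by another CACGNG. Either box of the pair can read CACGTG, and boxes facing opposite ways were counted as a pair only where either did.
TXNIP, chr1:145996580-145996729, minus strand: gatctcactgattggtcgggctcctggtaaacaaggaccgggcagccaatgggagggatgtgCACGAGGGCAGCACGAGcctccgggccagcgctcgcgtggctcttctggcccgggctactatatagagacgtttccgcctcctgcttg
ARRDC4, chr15:97960453-97960562, plus strand: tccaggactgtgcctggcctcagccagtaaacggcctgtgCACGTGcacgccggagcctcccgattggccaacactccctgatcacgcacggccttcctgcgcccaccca
MLX, chr17:42567020-42567099, plus strand: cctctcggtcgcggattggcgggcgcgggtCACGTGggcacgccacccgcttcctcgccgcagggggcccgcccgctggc

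The paired form lay 88 to 72 bases before the start of TXNIP, in the first of its 2 windows. It occurred in 20 of 35116 windows (0.057%), and TXNIP was 1 of the 20 genes of 27305 that held it. ARRDC4 held a single CACGTG 210 to 205 bases before its start, and MLX held the same letters 50 to 45 bases before its own, in each case without the paired form. CACGTG alone was found in 7.26% of all windows. Neither motif was in the windows of ARRDC3, MLXIP or TXN. A match of letters is a description of the window and was not measured as a binding site in these cells.

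TXNIP was higher with IL-17A in every sample. Its log2 signal was 12.77, 12.83 and 12.78 in IL-17A replicates 1 to 3 and 12.03, 12.10 and 12.23 in the controls, so the lowest treated array lay above the highest control. The treated mean of 12.79 ± 0.03 (SD, n = 3) stood above a control mean of 12.12 ± 0.10 (SD, n = 3), a log2 difference of 0.67 or 1.59-fold. The treated arrays lay closer to each other than the controls did. As a normalized signal before the log, TXNIP read 6990, 7259 and 7042 with IL-17A and 4183, 4401 and 4791 in the controls. Against the 3 controls of its own scan, IL-17A replicate 1 alone gave 0.65. Over 18 other ways of processing the arrays the difference ranged from 0.63 to 0.73, or 1.55-fold to 1.65-fold. Some of these ways change only the test or the filter on probes and cannot move it.

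**Figure D1:**
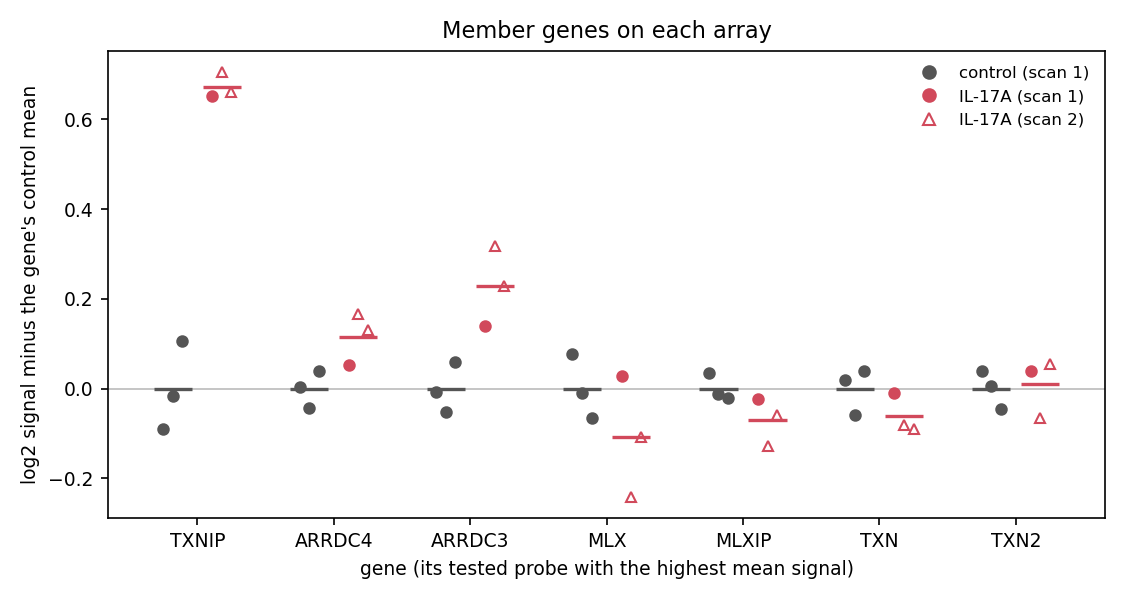
Log2 signal of the 7 genes on each array, each minus its own mean over the 3 controls; columns are genes, circles are arrays of the first scan, open triangles are IL-17A replicates 2 and 3 of the second scan, and bars are group means. TXNIP stands 0.67 above its controls, ARRDC3 follows at 0.23, and the groups of MLX, TXN and TXN2 overlap.

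ARRDC4 and ARRDC3, the other alpha-arrestins of the set, did not pass the test. ARRDC4 measured 8.80, 8.92 and 8.88 with IL-17A and 8.75, 8.71 and 8.79 in the controls. Its groups did not overlap, but they were separated by only the gap between 8.79 and 8.80. The log2 difference was 0.12 (SE 0.05, adjusted p = 0.163 by limma, 95% interval -0.0014 to 0.23).

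ARRDC3 is an alpha-arrestin that links surface receptors to ubiquitin ligases and is not known to bind thioredoxin. It read 9.95, 10.13 and 10.04 with IL-17A and 9.80, 9.76 and 9.87 without, again with no overlap. Its log2 difference of 0.23 (SE 0.06, 95% interval 0.08 to 0.38) gave an adjusted p = 0.0717 in limma, with the unadjusted value under 0.05. For both genes IL-17A replicate 1 was the lowest treated array. That 1 array against the controls of its scan gave 0.14 for ARRDC3 (adjusted p = 0.311 in the fit with the scan as a block) and 0.052 for ARRDC4 (adjusted p = 0.621), and the part of the scan in the larger value was not tested. ARRDC3 passed the test with another background correction, at 0.21 (adjusted p = 0.0228 with normexp), and with a variance trend in limma (adjusted p = 0.0266). The further alpha-arrestins ARRDC1 and ARRDC2 act in vesicle budding and receptor traffic. Of them 0 of 2 passed (0 unadjusted, and 0 by the methods' t-test), where 7.95% of all genes passed in limma (31.8% unadjusted). Their median was -0.07, and ARRDC5 was too dim to be tested.

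The factors that read glucose-6-phosphate did not pass the test. MLX, the obligate partner that carries the Mondo proteins to DNA, measured 8.66, 8.39 and 8.52 with IL-17A and 8.71, 8.62 and 8.56 in the controls. Its groups overlapped, and the log2 difference was -0.11 (SE 0.08, adjusted p = 0.405, 95% interval -0.31 to 0.09). With the scan as a block, where the treated side of the first scan is the single array of IL-17A replicate 1, it was 0.028 (adjusted p = 0.871).

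MLXIP, which encodes MondoA, read 9.10, 8.99 and 9.06 on its brighter probe with IL-17A and 9.15, 9.11 and 9.10 without. The groups touched at 9.10 without crossing, with a log2 difference of -0.070 (SE 0.04, adjusted p = 0.323, 95% interval -0.18 to 0.04). Its dimmer probe gave 5.41 ± 0.09 (SD, n = 3) against 5.52 ± 0.18 (SD, n = 3), with overlapping groups and a difference of -0.11 (adjusted p = 0.491). With the scan as a block, resting on 1 treated array, the brighter probe gave -0.023 (adjusted p = 0.840).

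Around these factors stands the MAX network, in which MYC and the MXD and MNT repressors compete for MAX at the same E boxes. Of its 11 listed genes 9 were tested and 0 of 9 passed limma's test, with 4 at an unadjusted p under 0.05. Of all genes 7.95% passed adjusted and 31.8% unadjusted. For the network the methods' t-test gave 0 adjusted and 4 unadjusted. Over all 14691 genes it could test, the same test gave 875 adjusted and 4508 unadjusted. Its counts for the other lists can be read beside these. The median log2 difference of the network was 0.04, beside 0.0033 over all tested genes. MYC, with 14.24, 14.17 and 14.18 against 14.15, 14.15 and 14.15, differed by 0.04 (adjusted p = 0.449). The brightest MAX probe differed by 0.0018 (adjusted p = 0.988), while its dimmer probes gave 0.19 (adjusted p = 0.136) and 0.24 (adjusted p = 0.0525), both higher with IL-17A without overlap. MLXIPL, the ChREBP gene that serves liver and fat in place of MLXIP, and MYCN were too dim to be tested.

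The thioredoxins, the redox proteins that TXNIP binds, also did not pass. TXN, the cytosolic form, measured 13.44, 13.37 and 13.36 with IL-17A and 13.47, 13.39 and 13.49 in the controls, a difference of -0.061 (SE 0.05, adjusted p = 0.409, 95% interval -0.17 to 0.05). TXN2, the mitochondrial form, measured 10.49, 10.39 and 10.51 against 10.49, 10.46 and 10.41, a difference of 0.0093 (SE 0.05, adjusted p = 0.919, 95% interval -0.11 to 0.13). Both pairs of groups overlapped. With the scan as a block the differences were -0.0100 for TXN (adjusted p = 0.936) and 0.038 for TXN2 (adjusted p = 0.786), each again from 1 treated array.

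**Figure D2:**
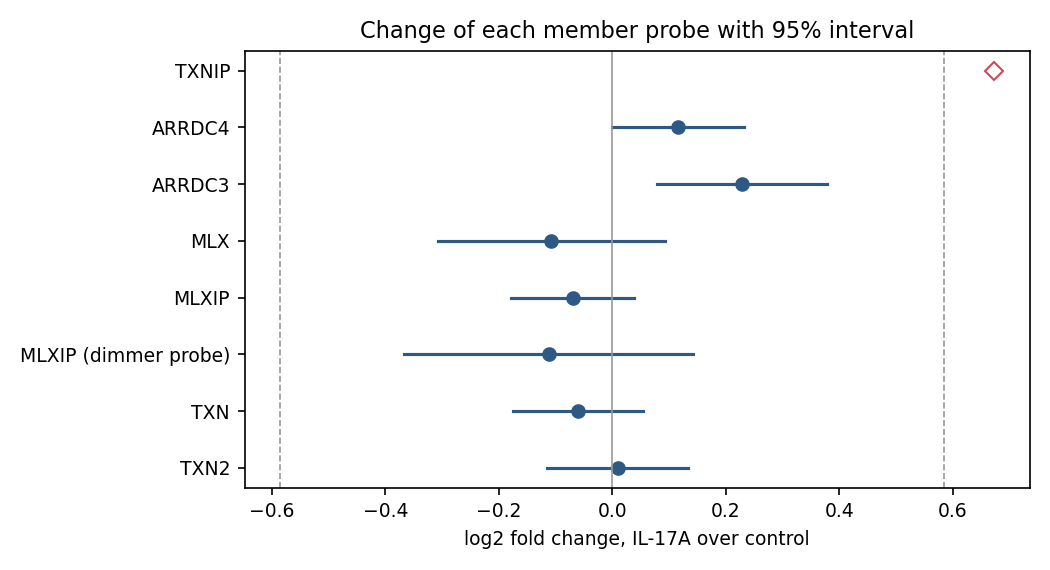
Log2 difference between IL-17A and control for each gene, with limma's 95% interval for the 6 tested genes; TXNIP, whose change chose the set, is an open diamond with no interval, and dashed lines mark 1.5-fold in either direction. TXNIP at 0.67 lies past the 1.5-fold line, and every interval of the other genes ends inside it.

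Across the 6 genes other than TXNIP, 0 of 6 passed an adjusted p under 0.05 in limma, where 7.95% of the 14692 named genes tested (of 19736 on the array) did. At an unadjusted p under 0.05 it was 1 of 6 (ARRDC3), where 31.8% of all genes passed, and the methods' t-test gave 0 adjusted and 2 unadjusted. The groups did not overlap for 3 of 6 (ARRDC3 and ARRDC4 higher, MLXIP lower), beside 40.7% of all genes (21.4% higher and 19.3% lower), so that separation of the groups was common on these arrays. An exact permutation of 6 arrays in 2 groups of 3 gives no two-sided p below 0.1 for any 1 gene.

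The genes that act with TXNIP were followed in 8 lists of 93 genes, of which 81 were tested. By limma 4 rose and 4 fell, 9.88% of those tested and close to the 7.95% of all genes (4.42% rose and 3.53% fell), with a median log2 difference of -0.016. The 8 genes, picked for passing on these same arrays, kept their direction under every alternative in which they were tested. Some alternatives cannot change a direction, and the way the genes were picked favours keeping it. The adjusted calls of the 8 were not kept when the arrays were fewer. Without IL-17A replicate 1, 2 or 3, or control replicate 1 or 2, 0 of 81 passed the adjusted test. Without control replicate 3 it was 2. In each of those fits all 8 had an unadjusted p under 0.05 in limma, which gives no separate support for genes picked on these arrays. With the scan as a block, where the treated side of the first scan is a single array, the adjusted calls were lost too.

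**Figure D3:**
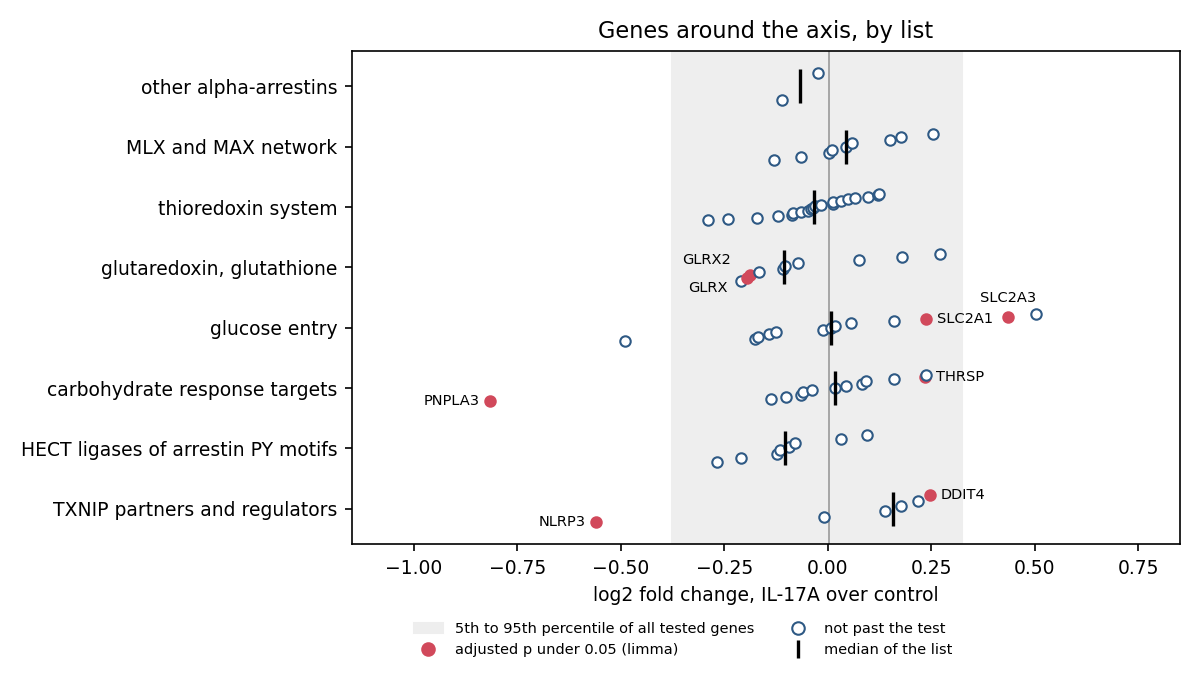
Log2 difference of each tested list gene, 1 line per list; filled red points passed limma's adjusted test and are named, open points did not, black ticks are list medians, and the grey band spans the 5th to 95th percentile of all tested genes (-0.38 to 0.32). Of the 8 genes that passed, PNPLA3, NLRP3 and SLC2A3 lie outside the band.

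Glucose entry is the step that TXNIP restrains. Of its 13 tested genes 2 rose and 0 fell (15.4%, where 7.95% of all genes passed), with a median of 0.0079. At an unadjusted p under 0.05 limma gave 7 of 13, where 31.8% of all genes passed. The methods' t-test gave 1 adjusted and 6 unadjusted. SLC2A1, the GLUT1 transporter that TXNIP withdraws from the membrane, read 12.52, 12.62 and 12.55 with IL-17A and 12.28, 12.31 and 12.37 without. It rose by 0.24 (SE 0.05, adjusted p = 0.0445), or 1.18-fold, with no overlap. The call was lost with scaling to the 75th percentile (adjusted p = 0.0939), by the methods' t-test (adjusted p = 0.0570) and with no filter on dim probes (adjusted p = 0.0509). The size was 0.24 in each.

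SLC2A3, the high-affinity transporter GLUT3, read 5.12, 5.07 and 5.0 against 4.70, 4.64 and 4.54. It rose by 0.44 (SE 0.06, adjusted p = 0.0324), or 1.35-fold, again with no overlap. With normexp the difference was 0.12 and did not pass (adjusted p = 0.0555), and the mean over its tested probes gave 0.40 (adjusted p = 0.0844). A dimmer SLC2A3 probe differed by 0.37 and did not pass (adjusted p = 0.268).

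Hexokinase makes the glucose-6-phosphate that MLXIP senses. The brightest probe of HK2, the inducible form, read 12.96, 12.95 and 12.84 with IL-17A and 12.77, 12.73 and 12.76 in the controls, without overlap, and its difference of 0.16 did not pass (adjusted p = 0.0804). The probes of the gene disagreed in the call: a dimmer one gave 0.53 (adjusted p = 0.0178). HK1, the form most cells use throughout, differed by 0.02 (adjusted p = 0.881) and HKDC1 by 0.06 (adjusted p = 0.810). ADPGK, which uses ADP as its phosphate donor, differed by -0.18 on its brightest probe (adjusted p = 0.0651) and by 0.06 on a dimmer one (adjusted p = 0.493), and HK3 was too dim to be tested.

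The remaining transporters did not pass on their brightest probes. SLC2A10 differed by 0.50 (adjusted p = 0.106), with treated arrays between 3.72 and 4.11 and controls between 3.24 and 3.71, a gap far smaller than the difference of the means. The fructose transporter SLC2A5 differed by -0.13 (adjusted p = 0.102), the intracellular transporter SLC2A8 by -0.17 (adjusted p = 0.0749) and the inositol transporter SLC2A13 by -0.14 (adjusted p = 0.309). The dimmer probes of SLC2A5 (0.036, adjusted p = 0.874) and SLC2A8 (-0.17, adjusted p = 0.168) did not pass either. SLC2A4, the insulin-responsive transporter of muscle and fat, differed by 0.0079 (adjusted p = 0.978). SLC2A6, a lysosomal transporter, differed by -0.011 on its brightest probe (adjusted p = 0.855), while its dimmer probe gave -0.39 (adjusted p = 0.0284).

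**Figure D4:**
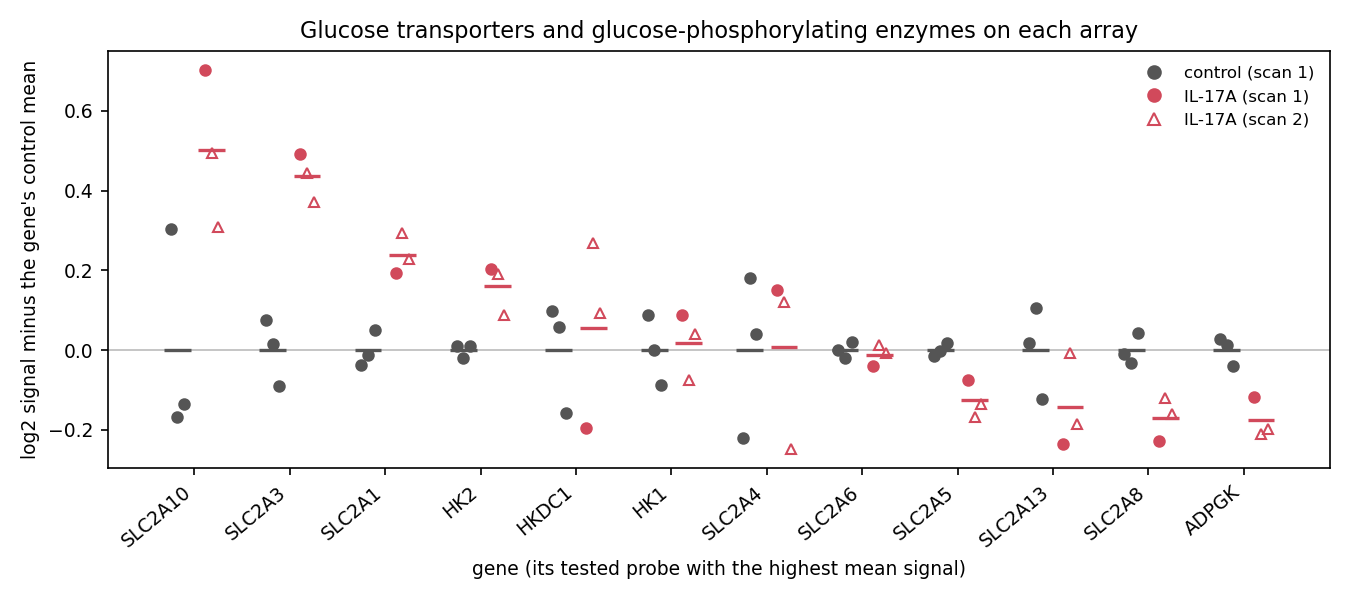
Log2 signal of the glucose transporters and glucose-phosphorylating enzymes named above on each array, each minus its own mean over the 3 controls, with arrays and bars as for the 7 genes. SLC2A1 at 0.24 and SLC2A3 at 0.44 passed the test, and SLC2A10, a dim gene, varies between arrays of a group.

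Genes known to carry carbohydrate response elements or to answer to the Mondo factors in liver went both ways as a list. Of 13 tested, 1 rose and 1 fell (15.4%, where 7.95% of all genes passed). By their means 7 were higher and 6 lower, and the median was 0.017. At an unadjusted p under 0.05 limma gave 4 of 13, where 31.8% of all genes passed. The methods' t-test gave 2 adjusted and 4 unadjusted. THRSP, a regulator of lipid synthesis, read 8.67, 8.62 and 8.68 with IL-17A and 8.44, 8.38 and 8.45 without, and it rose by 0.24 (SE 0.04, adjusted p = 0.0354). PNPLA3, a lipid droplet protein, was well above background on all 3 control arrays and on 0 of the 3 treated ones. It fell (adjusted p = 0.0451) and was at least 1.39-fold lower, a bound taken against the lowest signal that counted as above background on each array. The call was lost with dim signals raised to that floor (-0.48, adjusted p = 0.101), with normexp (-0.026, adjusted p = 0.60), and with the series' own log2 values (-0.50, adjusted p = 0.0923). It was also lost with no filter on dim probes (adjusted p = 0.0720), with a variance trend (adjusted p = 0.0633) and by the methods' t-test (adjusted p = 0.0879). Over all 8 lists, 76 genes had a promoter window, and 0 held the paired E boxes as searched, beside 0.0732% of all genes with a window. So rare a form would be missing from most lists of this size. Pairs facing opposite ways were also mostly not counted, so the 0 does not show that these genes lack the element. CACGTG was held by 13 of the 76, a larger share than the 8.77% of all genes (2396 of 27305), and this difference was not tested.

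Among the proteins known as partners or regulators of TXNIP, 1 rose and 1 fell of 6 tested (33.3%, where 7.95% of all genes passed). The median was 0.16. At an unadjusted p under 0.05 limma gave 4 of 6, where 31.8% of all genes passed. The methods' t-test gave 2 adjusted and 3 unadjusted. DDIT4 (REDD1), a stress-induced inhibitor of mTORC1 that forms a complex with TXNIP, read 10.40, 10.32 and 10.35 against 10.11, 10.10 and 10.13. It rose by 0.25 (SE 0.04, adjusted p = 0.0332). NLRP3, the inflammasome sensor that TXNIP is known to bind under oxidative stress, read 5.24, 5.36 and 5.21 with IL-17A and 5.85, 5.71 and 5.93 in the controls. It fell by 0.56 (SE 0.08, adjusted p = 0.0323), or 1.47-fold, and with normexp it fell by 0.19 (adjusted p = 0.0414). A dimmer NLRP3 probe differed by -0.43 and did not pass (adjusted p = 0.0703). PRKAA2, a catalytic subunit of AMPK, was among the listed genes too dim to be tested.

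The thioredoxin system, with thioredoxin reductases, peroxiredoxins and other users of thioredoxin, had 20 tested genes and a median of -0.03. In limma 0 of 20 passed (4 unadjusted), where 7.95% of all genes passed (31.8% unadjusted). By the methods' t-test 1 passed adjusted and 7 unadjusted. TXNRD1, the cytosolic reductase that recharges TXN, differed by -0.05 (adjusted p = 0.619).

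The parallel glutaredoxin and glutathione enzymes had a median of -0.11. In limma 2 of 10 passed, both lower (20%, where 7.95% of all genes passed). By their means 3 genes were higher and 7 lower, and single genes ran from -0.21 to 0.27. At an unadjusted p under 0.05 limma gave 8 of 10, where 31.8% of all genes passed. The methods' t-test gave 3 adjusted and 8 unadjusted. GLRX, the cytosolic glutaredoxin, read 11.68, 11.74 and 11.76 with IL-17A and 11.95, 11.93 and 11.90 in the controls, and it fell by 0.20 (SE 0.04, adjusted p = 0.0474). GLRX2, the mitochondrial form, read 10.07, 10.12 and 10.08 against 10.28, 10.28 and 10.28, and it fell by 0.19 (SE 0.04, adjusted p = 0.0416). Neither pair of groups overlapped, and the changes were 1.15-fold and 1.14-fold. With scaling to the 75th percentile the calls were lost (adjusted p = 0.0711 for GLRX and 0.0667 for GLRX2).

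The HECT ubiquitin ligases, which the arrestins recruit through their PY motifs, had 8 tested genes and a median of -0.10. In limma 0 of 8 passed (4 unadjusted), where 7.95% of all genes passed (31.8% unadjusted). By the methods' t-test 0 passed adjusted and 4 unadjusted.

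Genes whose pattern over the 6 arrays lay nearest to that of TXNIP were sought among 13868 genes above background on every array, by the root mean square distance between log2 values taken from each gene's own control mean. The nearest was AFDN-DT, a divergent noncoding transcript at AFDN, with a distance of 0.026 and a log2 difference of 0.67. RSPH1, a radial spoke protein of motile cilia, followed at 0.030, with a difference of 0.65. CFAP96 came next at 0.050 and LINC02649, a noncoding RNA, at 0.050, with differences of 0.73 and 0.63. MICALL2, which acts in endocytic recycling, lay at 0.070 with a difference of 0.59. None of them belonged to the set or its lists. ARRDC3 held rank 1058 in that order and ARRDC4 rank 2990, while TXN2, TXN, MLXIP and MLX held ranks 6717, 8856, 9258 and 10632. With values taken from the control mean, the order largely follows how near each gene's difference lies to that of TXNIP. The signal of TXNIP chose the set, so the ranks are a description and no test.

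**Figure D5:**
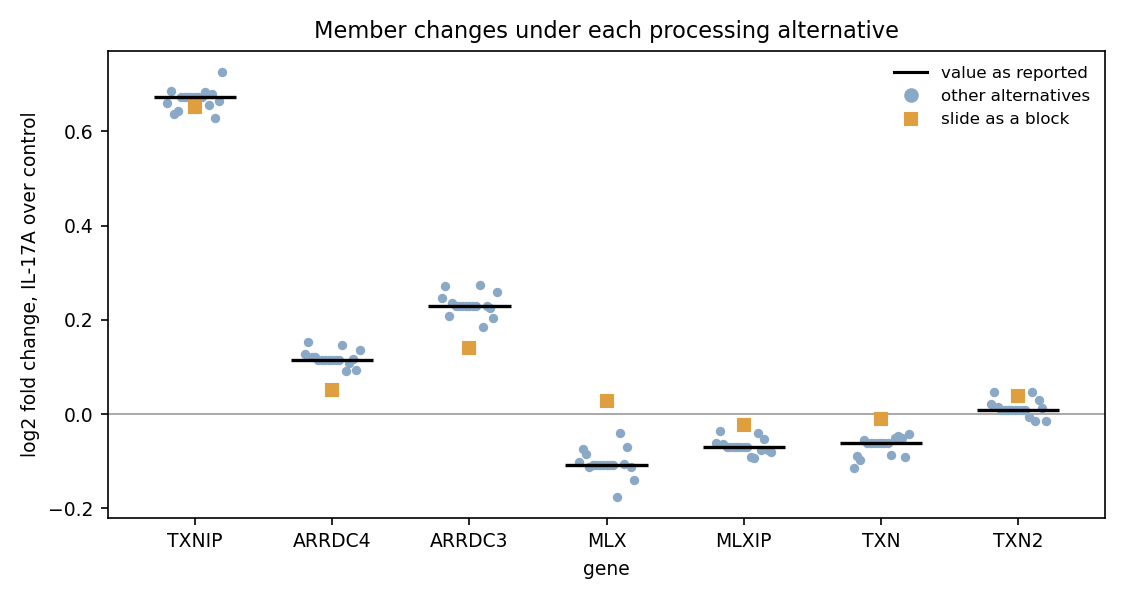
Log2 difference of each of the 7 genes as reported (black) and under 18 other ways of processing or selecting the arrays. Among these, the value with the scan as a block, named slide in the legend, is the orange square, and the others are blue. TXNIP stays between 0.63 and 0.73, ARRDC3 runs from 0.14 to 0.27, and the values of MLX and TXN2 lie on both sides of 0.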

How the data were processed

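RNA of 6 SU-DHL-2 samples was read on Agilent single-colour arrays. The authors deposited scanner intensity files made with Agilent Feature Extraction 11.0.1.1 (background-subtracted processed signal) and a table of log2 values, made per the methods with quantile normalization; the latter served as an alternative. Processed signals below 1 were set to 1, taken to log2, averaged over spots of a probe (61 non-uniform spots left out) and quantile normalized. Probes positive, significant and well above background on at least 3 of 6 arrays were tested with limma 3.58.1 in R 4.3.3 (lmFit, eBayes, two-sided), with Benjamini-Hochberg adjustment over 23872 probes and a call at an adjusted p under 0.05. Quantile normalization removes any shift shared by all genes. For each gene, named by RefSeq accession, the tested probe of highest mean signal was used. Named were the 7 genes, list genes that passed, the glucose entry genes (except an item not reported here), TXNRD1, MYC, MAX, and the 5 genes nearest to TXNIP; untested genes and further probes were added with their values known. The members and lists were chosen with earlier results of these data known. The fit was tested on simulated data. Alternatives covered scaling, background correction, the log2 table, filters, floor, variance trend, test, probe choice, scan and replicate blocks, and each array left out.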

Additional observations from a re-analysis of the deposited data

How the results depend on the processing

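The higher TXNIP signal kept its direction and moved by less than the SD of the controls under all 18 alternatives. Those that changed only the test, its variance, the filter on probes or the replicate block could not move a log2 difference. The same limit holds for the direction of the other genes. Of 108 values for the other 6 genes, 102 kept direction and side of the threshold, 2 passed it (ARRDC3), and 4 turned sign: MLX with the scan as a block (0.028), and TXN2 when treated replicate 1 or 3, or control replicate 3, was left out (over single arrays left out, -0.014 to 0.047). Members passing the adjusted test numbered 1 with normexp and 1 with a variance trend, otherwise 0. List genes passing, 8 as reported, numbered 0 with no normalization between arrays, 15 with normexp, 25 with a variance trend, 16 with the mean over tested probes, 0 with the scan as a block, and 0 to 2 with single arrays left out. The replicate number as a block gave 0 list genes and 3 of all genes. The numbers mark no known pairing: deviations of same-numbered arrays correlated at -0.087, -0.0033 and -0.048, and 0 arrays correlated best with their own number. All genes passing, 1168 as reported, numbered 28 with no normalization, 2618 with a variance trend, 31 with the scan as a block, and 1 to 620 with single arrays left out. The cause of these shifts was not tested. Dim probes, such as those of PNPLA3 and SLC2A10, are limited by signal over background.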
